A study of Mus musculus with 59 samples.

Results

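Rsad2, Irf7, Xaf1, Rtp4, Ifit1, Ifit3, Oasl2, Isg15 and Usp18 are interferon-stimulated genes, whose transcription rises when a cell senses type I interferon. They were chosen with earlier results of these data known, and were found by symbol through the Ensembl identifiers of the deposited table. All 9 had a row among the 18088 genes in the table, and all 9 passed the filter on low values, which left 17901 genes for testing. Their RNA was measured by sequencing of the prefrontal cortex, the region at the front of the neocortex, in 59 C57BL/6J mice aged 25 days. The mice were 30 heterozygotes carrying the Dyrk1a+/I48X genotype and 29 wild-type mice, where Dyrk1a is the gene of a protein kinase. Each pup had taken vehicle, lithium or fluoxetine, an inhibitor of serotonin reuptake, in its mother's milk for 3 weeks, between postnatal days 3 and 24. Females and males of each genotype and drug made 12 groups of 5 mice, apart from the wild-type males on fluoxetine, of which there were 4. Litters are not named in the labels and littermates share a dam and its drug, so the p-values reflect only how these mice differ and litter cannot be told apart from drug.

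Type I interferons bind the receptor made of Ifnar1 and Ifnar2, and the kinases attached to it activate transcription factors that bind the interferon-stimulated response element in the promoters of target genes. The products of these genes block steps of viral replication, mark proteins, or adjust the response itself. In brain tissue they can be made by microglia, endothelial cells, astrocytes and neurons. In a bulk tissue sample, fewer cells of a type and less RNA per cell cannot be told apart.

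The response element is known for its repeated TTTC blocks, so the promoters of the 9 genes were searched for TTTC, any 2 bases and TTTC again, on both strands (GAAA, any 2 bases and GAAA where the match lies on the strand not printed), in the 250 bases before the start site. RefSeq promoters on GRCm38.p6 were at hand for 7 of the 9 genes, and 4 of these genes held at least 1 match (57.1%). Of all 27025 genes with a promoter of the same length 3.46% did, and of all 32851 such promoters 2.98% did. Matches may overlap each other. Stretches with the matches and 30 bases on either side are shown because they are the sequence feature these genes are known for, with the matching bases in capitals and the rest in lower case, 5′ to 3′ on the gene's strand.
Rsad2 (chr12:26456533-26456602, minus strand): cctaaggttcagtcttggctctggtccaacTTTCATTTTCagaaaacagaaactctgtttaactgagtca
Ifit1 (chr19:34640755-34640843, plus strand): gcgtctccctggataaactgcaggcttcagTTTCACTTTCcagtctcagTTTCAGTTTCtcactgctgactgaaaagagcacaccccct
Ifit3 (chr19:34583343-34583446, plus strand): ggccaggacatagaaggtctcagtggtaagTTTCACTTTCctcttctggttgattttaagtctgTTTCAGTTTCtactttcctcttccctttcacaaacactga
Isg15 (chr4:156200845-156200926, minus strand): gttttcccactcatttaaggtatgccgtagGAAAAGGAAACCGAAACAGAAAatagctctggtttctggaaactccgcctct
Ifit1 and Ifit3 each held 2 matches, Rsad2 held 1, and Isg15 held 3 overlapping ones on the opposite strand. For Irf7, Xaf1 and Oasl2 these letters are not in this window, and Rtp4 and Usp18 had no entry in the promoter table. A match is a description of the letters and not a binding site.

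The libraries held 24391022 to 33842466 counts, with a median of 27601196. With vehicle, Dyrk1a stood at 2326 ± 65.9 normalised counts in heterozygotes and 2232 ± 55.7 in wild types (SD, n = 10 per genotype), a log2 difference of 0.06 ± 0.05 (SE, limma adjusted p = 0.451). A sum over a gene does not separate mutant from normal transcripts. With lithium it was at 2342 ± 142 and 2190.1 ± 34.6 (SD, n = 10 per genotype), and with fluoxetine at 2598 ± 648 (SD, n = 10) and 2160.4 ± 60.4 (SD, n = 9). Of all libraries, the library labelled heterozygous fluoxetine male 3 had the highest Dyrk1a (4214 normalised counts). Heterozygous fluoxetine males 3 and 4 stood apart from the other libraries of their group in several gene lists described with the results. The cortical neuron markers were present in every library.

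Gene positions are given for the whole gene in GENCODE vM21 on GRCm38. All 9 genes had counts in every wild-type vehicle mouse. Per kilobase of exon, Ifit3 stood highest at 114 ± 12.9 normalised counts (SD, n = 10), followed by Isg15 at 45.9 ± 11.2 and Rtp4 at 29.3 ± 4.01. Ifit1 followed at 21.7 ± 2.76. Oasl2 (14.7 ± 2.18), Irf7 (14.4 ± 2.66) and Xaf1 (13.7 ± 1.38) lay within 1 SD of each other, and Usp18 (10.2 ± 1.25) and Rsad2 (7.67 ± 1.81) were lowest. Reads of Ifit3 and Ifit3b, and of Ifit1 and its copies Ifit1bl1 and Ifit1bl2, could be split between similar sequences. To a lesser degree this may hold for Oasl2 and its relative Oasl1. The values of Ifit3, Ifit1 and Oasl2 may therefore be less certain than those of the other genes.

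Fluoxetine was the condition in which these genes differed. Averaged over both genotypes, 7 of the 9 were higher with fluoxetine than with vehicle, and the log2 differences of all 9 lay above 0, between 0.31 and 0.71 with a median of 0.47. Among all genes tested the median difference was 0.003 and 3.09% were called in either direction (1.45% higher). Because the 9 were chosen with earlier results of these data known, that contrast is a description and not a test. A gene is called when its adjusted p in limma (Benjamini-Hochberg over 17901 genes) is under 0.05. The calls depended on a few mice. Without wild-type fluoxetine female 1 and heterozygous fluoxetine males 2, 3 and 4, no gene of the 9 was called by limma (6 had an unadjusted p under 0.05, the smallest adjusted p was 0.065, and 285 of all 17901 genes were called, against 553 with all libraries), with all 9 differences still above 0, between 0.11 and 0.34. Female 1 and male 2 were left out because these very genes were high in them, a choice made after seeing the data, so a smaller difference without them follows in part from that choice.

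Irf7 (chr7:141262706-141266481, minus strand) encodes the transcription factor that drives the interferon alpha genes. In vehicle mice its level ran from 41.4 to 72.9 normalised counts with a median of 53.4 in wild-type mice (n = 10) and from 36.3 to 95.2 with a median of 54.8 in heterozygous mice (n = 10). With fluoxetine it ran from 52.1 to 244 in wild-type mice, median 80.3 (n = 9), and from 60.2 to 341 in heterozygous mice, median 69.3 (n = 10). By replicate number, Irf7 on fluoxetine was at 109, 67.9, 70.7, 62.7 and 63.7 in heterozygous females and 65.6, 222, 341, 143 and 60.2 in heterozygous males. In wild-type mice Irf7 was at 244, 52.1, 52.2, 61.7 and 97.4 in females and 88.1, 82.8, 80.3 and 58.9 in males. The groups overlapped, and the highest fluoxetine values belonged to 4 mice: wild-type female 1 at 244, and heterozygous males 3, 2 and 4 at 341, 222 and 143. In each genotype most fluoxetine mice stood above the vehicle mean of their own sex, 10 of 10 heterozygous and 7 of 9 wild-type mice. The difference was 0.71 ± 0.16 on the log2 scale over both genotypes (SE, limma adjusted p = 0.00696), and 0.84 ± 0.22 in heterozygous mice (adjusted p = 0.0214). In wild-type mice alone it was 0.57 ± 0.22 (limma adjusted p = 0.181) and did not pass. Lithium mice ran from 42.4 to 68.1 with a median of 52.8 in wild-type and from 42.4 to 68.4 with a median of 58.4 in heterozygous mice (n = 10 each), close to vehicle.

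Rsad2 (chr12:26442746-26456452, minus strand) encodes viperin, an enzyme that makes a nucleotide analogue terminating viral RNA synthesis. In heterozygous mice it ran from 15.3 to 53.9 normalised counts with vehicle (median 31.1, n = 10) and from 35.99 to 126 with fluoxetine (median 51.0, n = 10). In wild-type mice the ranges were 21.8 to 52.2 with vehicle (median 32.0, n = 10) and 24.4 to 72.6 with fluoxetine (median 35.3, n = 9). By replicate number, Rsad2 on fluoxetine was at 52.5, 53.2, 49.6, 35.99 and 44.9 in heterozygous females and 43.0, 56.0, 77.9, 126 and 36.1 in heterozygous males. In wild-type mice Rsad2 was at 72.6, 39.1, 24.4, 26.9 and 37.0 in females and 47.95, 35.3, 28.6 and 31.5 in males. Heterozygous fluoxetine male 4 was highest at 126 and male 3 next at 77.9, followed by wild-type female 1 at 72.6. All 10 heterozygous fluoxetine mice stood above the vehicle mean of their sex and 4 of the 9 wild-type ones did. The log2 difference was 0.81 ± 0.18 in heterozygous mice (SE, limma adjusted p = 0.00970), 0.15 ± 0.19 in wild-type mice (adjusted p = 0.712) and 0.48 ± 0.13 over both (adjusted p = 0.0313). The difference between the genotypes in the response was 0.66 ± 0.26 (limma adjusted p = 0.142) and did not pass. Lithium medians were 33.9 in heterozygous and 32.8 in wild-type mice.

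Rtp4 (chr16:23520291-23614222, plus strand) encodes a chaperone of membrane receptors that also limits viral RNA replication. Levels in wild-type mice ran from 52.9 to 77.1 with vehicle (median 59.3, n = 10) and from 65.0 to 173 with fluoxetine (median 75.9, n = 9). Those in heterozygous mice ran from 48.7 to 84.6 with vehicle (median 63.7, n = 10) and from 54.5 to 165 with fluoxetine (median 80.9, n = 10). By replicate number, Rtp4 on fluoxetine was at 83.8, 65.8, 78.0, 54.5 and 83.5 in heterozygous females and 77.5, 165, 102, 96.4 and 78.2 in heterozygous males. In wild-type mice Rtp4 was at 173, 75.9, 65.0, 67.4 and 85.7 in females and 73.4, 77.2, 67.1 and 90.4 in males. Wild-type female 1 (173) and heterozygous male 2 (165) were far above the other fluoxetine mice, of which the next was at 102. Nonetheless 9 of 9 wild-type and 9 of 10 heterozygous fluoxetine mice stood above the vehicle mean of their sex. The difference was 0.41 ± 0.09 over both genotypes (SE, limma adjusted p = 0.00735), 0.43 ± 0.13 in heterozygous mice (adjusted p = 0.0429) and 0.39 ± 0.13 in wild-type mice (adjusted p = 0.123). Leaving out any of 14 of the 20 libraries ended the call in heterozygous mice. With lithium the medians were 60.9 in wild-type and 64.2 in heterozygous mice.

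Xaf1 (chr11:72301629-72313733, plus strand) encodes a protein that opposes an inhibitor of caspases, the proteases of cell death. Vehicle levels ran from 55.0 to 78.6 in wild-type mice (median 62.8, n = 10) and from 63.4 to 90.4 in heterozygous mice (median 69.2, n = 10), and fluoxetine levels from 58.0 to 111 (median 70.5, n = 9) and from 64.2 to 155 (median 90.3, n = 10). Lithium medians were 61.4 and 70.7. By replicate number, Xaf1 on fluoxetine was at 108, 97.1, 67.9, 66.8 and 83.5 in heterozygous females and 79.6, 147, 155, 147 and 64.2 in heterozygous males. In wild-type mice Xaf1 was at 111, 61.8, 58.0, 66.2 and 67.7 in females and 70.5, 87.2, 72.6 and 72.1 in males. Heterozygous fluoxetine males 2, 3 and 4 stood together at 147, 155 and 147. The log2 difference with fluoxetine was 0.31 ± 0.08 over both genotypes (SE, limma adjusted p = 0.0330), 0.43 ± 0.12 in heterozygous mice (adjusted p = 0.0304) and 0.19 ± 0.12 in wild-type mice (adjusted p = 0.423). By genotype, averaged over the drugs, 1 of the 9 genes was called, beside 21.4% of all genes (8.97% higher), and 3 were without wild-type fluoxetine female 1. With all libraries this was Xaf1, which was 0.25 ± 0.07 higher in heterozygous than in wild-type mice (SE, limma adjusted p = 0.0134). With the olfactory bulb list as a covariate the genotype difference was 0.26 ± 0.07 and the adjusted p was 0.0678, in limma. Olfactory bulb markers, which can differ between dissections, were 0.65 higher in heterozygous mice (median over 18 genes, 3 called higher). Whether the dissections differed is not given in the labels. The part of these markers in this result was not tested beyond that covariate.

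Ifit1 (chr19:34640871-34650009, plus strand) encodes a protein that binds RNA lacking a methylated cap, and Ifit3 (chr19:34583531-34588731, plus strand) its partner. Ifit1 ran from 44.7 to 69.6 in wild-type vehicle mice (median 57.8, n = 10), from 60.4 to 254 with fluoxetine (median 66.0, n = 9), and from 43.1 to 107 and 61.2 to 191 in heterozygous mice (medians 70.3 and 85.1, n = 10 each). By replicate number, Ifit1 on fluoxetine was at 124, 76.2, 66.1, 70.9 and 89.7 in heterozygous females and 84.997, 191, 118, 85.3 and 61.2 in heterozygous males. In wild-type mice Ifit1 was at 254, 65.1, 60.4, 69.6 and 86.8 in females and 108, 62.9, 66.0 and 63.0 in males. Wild-type female 1 was highest at 254, heterozygous male 2 next at 191. Its difference was 0.47 ± 0.14 over both genotypes (SE, limma adjusted p = 0.0456), and 0.44 ± 0.19 and 0.50 ± 0.20 in heterozygous and wild-type mice alone (adjusted p = 0.152 and 0.183). Leaving out any of 25 of the 39 libraries in the comparison ended the call. Ifit3 reached 630 in wild-type female 1 and lay at 188 to 247 in the other 8 wild-type fluoxetine mice, against 160 to 231 with vehicle (median 198, n = 10). In heterozygous mice it ran from 178 to 421 with fluoxetine (median 281) and from 148 to 333 with vehicle (median 200, n = 10 each). The difference of Ifit3 was 0.36 ± 0.11 over both genotypes, not called by limma (adjusted p = 0.0564), and the quasi-likelihood test of edgeR on recovered counts gave 0.41 with an adjusted p of 0.0327.

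Oasl2 (chr5:114896936-114912234, plus strand) belongs to the oligoadenylate synthetase family. Wild-type levels ran from 61.0 to 113 with vehicle (median 94.3, n = 10) and from 89.4 to 562 with fluoxetine (median 115, n = 9). Heterozygous levels ran from 79.8 to 188 with vehicle (median 93.6) and from 63.8 to 328 with fluoxetine (median 143, n = 10 each). By replicate number, Oasl2 on fluoxetine was at 180.3, 139.9, 129, 63.8 and 146 in heterozygous females and 125, 328, 169, 167 and 118 in heterozygous males. In wild-type mice Oasl2 was at 562, 109.6, 89.4, 90.9 and 158 in females and 144, 115, 136 and 112 in males. Wild-type female 1 (562) and heterozygous male 2 (328) were the 2 highest of all libraries. The difference was 0.55 ± 0.14 over both genotypes (SE, limma adjusted p = 0.0258), 0.53 ± 0.20 in heterozygous mice (adjusted p = 0.103) and 0.57 ± 0.21 in wild-type mice (adjusted p = 0.146).

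Isg15 (chr4:156199424-156200818, minus strand) encodes a small ubiquitin-like protein that is attached to other proteins, and Usp18 (chr6:121245906-121270917, plus strand) the protease that removes it and dampens the receptor. Isg15 stood at 119 in wild-type female 1 and at 157 in heterozygous male 2, and the other fluoxetine mice ranged from 30.8 to 65.6. Vehicle mice ran from 25.4 to 48.4 in wild-type (median 31.7) and 26.8 to 69.2 in heterozygous mice (median 37.3, n = 10 each). Its difference of 0.43 ± 0.14 was not called by limma (adjusted p = 0.0741). Usp18 ran from 22.5 to 32.8 in wild-type vehicle mice and from 29.5 to 168 with fluoxetine (medians 28.5 and 38.2). In heterozygous mice it ran from 21.5 to 56.7 with vehicle and 27.8 to 113 with fluoxetine (medians 27.8 and 41.2). By replicate number, Usp18 on fluoxetine was at 54.2, 40.7, 34.9, 27.8 and 41.7 in heterozygous females and 35.5, 113, 79.0, 55.8 and 32.1 in heterozygous males. In wild-type mice Usp18 was at 168, 41.2, 30.2, 31.4 and 55.0 in females and 38.2, 39.7, 29.7 and 29.5 in males. All 9 wild-type and 8 of 10 heterozygous fluoxetine mice stood above the vehicle mean of their sex. The difference of Usp18 was 0.58 ± 0.15 over both genotypes (SE, limma adjusted p = 0.0188), 0.61 ± 0.20 in heterozygous mice (adjusted p = 0.0679) and 0.55 ± 0.21 in wild-type mice (adjusted p = 0.169).

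**Figure D1:**
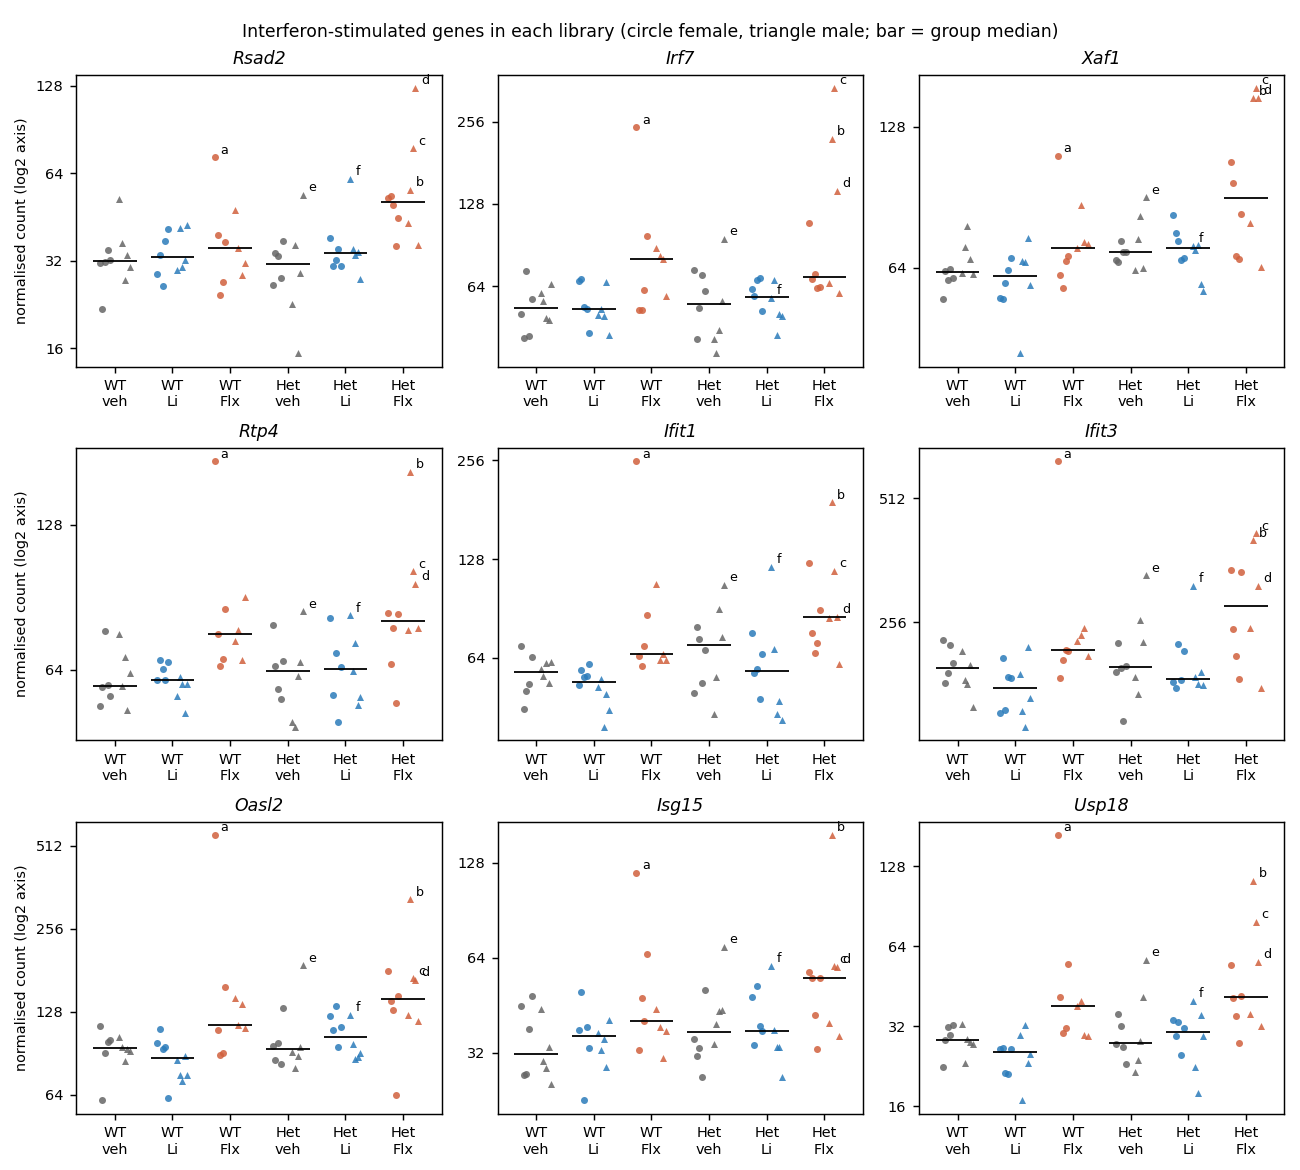
Normalised count of each of the 9 genes in every library (log2 axis) by genotype and drug (veh vehicle, Li lithium, Flx fluoxetine), with circles for females, triangles for males and bars for group medians. Letters mark wild-type fluoxetine female 1 (a), heterozygous fluoxetine males 2, 3 and 4 (b, c, d), heterozygous vehicle male 5 (e) and heterozygous lithium male 1 (f); the fluoxetine groups overlap the vehicle groups and the highest point of each fluoxetine group is a lettered mouse.

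In the heterozygous mice 4 of the 9 genes were called higher with fluoxetine, Rsad2, Irf7, Xaf1 and Rtp4, where 4.27% of all genes were called in either direction (2.21% higher). In the wild-type mice limma called 0 of 9, with 6 at an unadjusted p under 0.05 and 0.447% of all genes called (0.184% higher), and edgeR called 0 as well. The counts in the 2 genotypes turned around when limma gave less weight to libraries far from the fit over all genes. Then 7 of 9 were called in wild-type mice and 0 of 9 in heterozygous mice, where 3110 and 975 of all genes were called. With these weights the wild-type differences of the 7 rose, to 0.75 for Oasl2 and 0.71 for Irf7, from 0.57 for both. Without wild-type fluoxetine female 1 these differences fell instead, to 0.34 for Oasl2 and 0.38 for Irf7. Weights set over all genes need not lower the part of a mouse that is high in these 9. With equal weights, the differences in wild-type mice ran from 0.15 ± 0.19 (Rsad2) to 0.57 ± 0.21 (Oasl2). The response was not shown to differ between genotypes: limma called 0 of the 9 for the difference in response, where 0% of all genes were called and 1 of the 9 (Rsad2) had an unadjusted p under 0.05. Without wild-type female 1 and heterozygous male 2, Rsad2 was 1 of 1082 genes called there by limma, at 0.80 ± 0.25 (adjusted p = 0.0482). These mice were left out after seeing the data, and female 1 had the highest Rsad2 of the wild-type fluoxetine mice. Leaving them out lowered the wild-type difference of Rsad2 to 0.03, so the wider gap follows in part from that choice. The count in heterozygous mice fell to 0 without heterozygous males 3 and 4, where 76 of all genes were called, against 764 with all libraries. The count over both genotypes was then 4, where 423 of all genes were called, against 553. Leaving out male 4 or wild-type female 1 alone left 4 genes called over both genotypes, with the number of all genes called not given here.

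**Figure D2:**
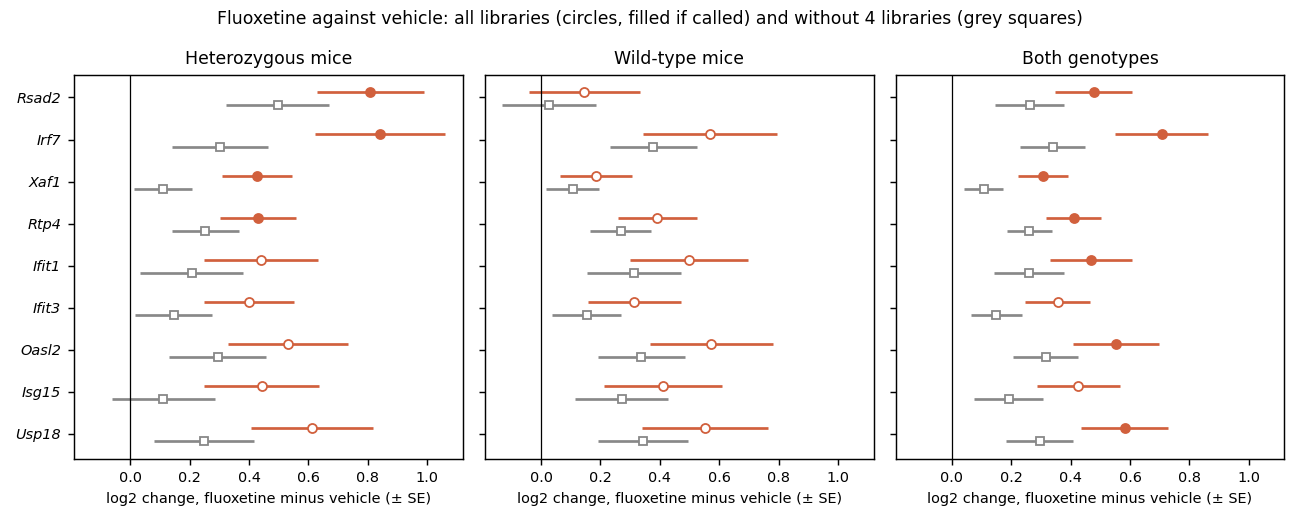
Log2 difference between fluoxetine and vehicle with its standard error for the 9 genes in heterozygous, wild-type and all mice, from all libraries (circles, filled where called) and without 4 libraries (grey squares). The 9 values over both genotypes lie between 0.31 and 0.71 with all libraries and between 0.11 and 0.34 without the 4.

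Lithium left these genes near the vehicle level. Averaged over both genotypes the differences ran from -0.15 ± 0.14 (Ifit1) to 0.13 ± 0.13 (Rsad2), and 0 of 9 were called by limma or edgeR, with 0 at an unadjusted p under 0.05 and 2.12% of all genes called. In heterozygous mice they ran from -0.16 ± 0.19 (Ifit1) to 0.21 ± 0.18 (Rsad2) and in wild-type mice from -0.20 ± 0.20 (Usp18) to 0.06 ± 0.18 (Rsad2), again with 0 called and 0 under the unadjusted threshold, where 0.497% and 0.162% of all genes were called. For the difference in the response to lithium between genotypes 0 of 9 and 0% of all genes were called. Heterozygous lithium male 1 was an exception within its group, at 313 for Ifit3 and 121 for Ifit1 where the others had at most 194 and 68.2.

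No genotype difference passed for the other 8 genes over all drugs, where they ran from 0.05 ± 0.07 (Rtp4) to 0.20 ± 0.11 (Isg15). Under vehicle the differences, heterozygous minus wild type, ran from -0.11 ± 0.18 (Rsad2) to 0.22 ± 0.19 (Ifit1), with 0 called and 0 at an unadjusted p under 0.05 (limma), while 13.1% of all genes were called. Under lithium they ran from 0.05 ± 0.18 (Rsad2) to 0.31 ± 0.20 (Oasl2) with 0 called and 0 under that unadjusted threshold, and under fluoxetine from 0.06 ± 0.13 (Rtp4) to 0.56 ± 0.19 (Rsad2) with 0 called and 2 under it, where 0.0112% of all genes were called in each. Females and males did not differ in a gene that passed: the differences, female minus male, ran from -0.11 ± 0.07 (Xaf1) to 0.04 ± 0.11 (Isg15), with 0 called, 0 under the unadjusted threshold and 0.156% of all genes called. The genotype difference under vehicle was compared between the sexes too, from -0.54 ± 0.39 (Isg15) to 0.34 ± 0.36 (Rsad2), with 0 called and 0 under the unadjusted threshold beside 16.0% of all genes. EdgeR called 0 of 9 in each comparison of this paragraph apart from genotype over all drugs. There it called 1, Xaf1, at 0.27 (edgeR adjusted p = 0.0110).

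The 9 genes moved together from mouse to mouse. Within groups, the deviations of each pair of genes from the group mean correlated in all 36 pairs, with Pearson's r from 0.49 (Rsad2 and Rtp4) to 0.82 (Ifit1 and Ifit3) and Spearman's rho from 0.34 to 0.76 over 59 mice. All 36 passed a permutation test within groups (adjusted p at most 0.00945 for r and 0.0328 for rho, 100000 permutations, two-sided). Without the 2 mice farthest from the median of the first gene, r ran from 0.39 to 0.73. Without wild-type female 1 and heterozygous fluoxetine males 2 to 4, 28 of the 36 pairs passed by r and 23 by rho, and the median r went from 0.68 to 0.46 and the median rho from 0.49 to 0.36. Irf7, Usp18 and Oasl2 had the largest spread within groups, with SDs of 0.50, 0.47 and 0.46 on the log2 scale, and Xaf1 the smallest at 0.26.

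**Figure D3:**
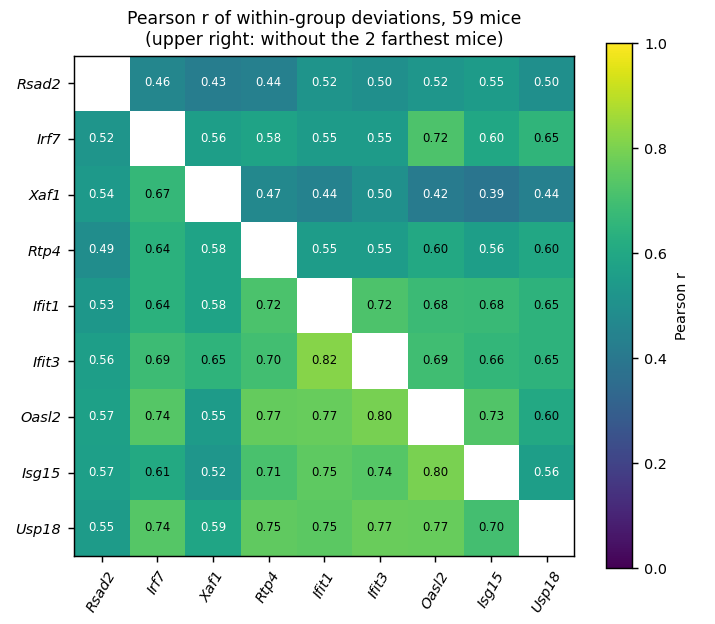
Pearson's r between the within-group deviations of each pair of the 9 genes over 59 mice, below the diagonal for all mice and above it without the 2 mice farthest from the median of the first gene. Below the diagonal, r ranges from 0.49 to 0.82.

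Wild-type fluoxetine female 1 had the highest mean deviation from its group over the 9 genes, and exceeded the other 4 of its group in all 9 genes. Its levels were 1.73 (Xaf1) to 5.60 (Oasl2) times the median of the others. Heterozygous vehicle male 5 also exceeded its group in all 9 genes, by 1.32 (Xaf1) to 2.24 (Irf7) times, although it had received no drug. Heterozygous fluoxetine female 1 exceeded its group in 8 genes and heterozygous lithium male 1 in 7. Wild-type vehicle male 1 and wild-type lithium female 2 did so in 6 genes each. Heterozygous fluoxetine male 2, heterozygous lithium female 1 and wild-type fluoxetine male 1 did so in 5 each. In wild-type fluoxetine female 1, Gbp3 (365), an interferon-induced GTPase, was above the others of the group (121 to 168).

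The high mice were not alike in other genes. Wild-type female 1 had the microglial list 0.11 above the mean of all libraries (others of its group -0.06 to 0.08) and its endothelial list at 0.01, with P2ry12 (1411) and Cx3cr1 (1263) inside the range of the other 4, 1236 to 1452 and 1205 to 1276. Heterozygous fluoxetine male 3 had the highest Irf7 of all libraries. Its microglial list was at -0.47, with P2ry12 at 451 and Cx3cr1 at 627, and its glucocorticoid-responsive list at 1.58, with Fkbp5, a classic glucocorticoid target, at 8496 normalised counts. Male 4 had -0.45 and 0.57 for these lists and Fkbp5 at 3668, whereas the other 3 males of the group reached at most 0.19 for the microglial list. Male 2 had the olfactory bulb list at 1.12 where the others of its group had -1.54 to -0.49. The part of these lists in the levels of the 9 genes was not tested.

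**Figure D4:**
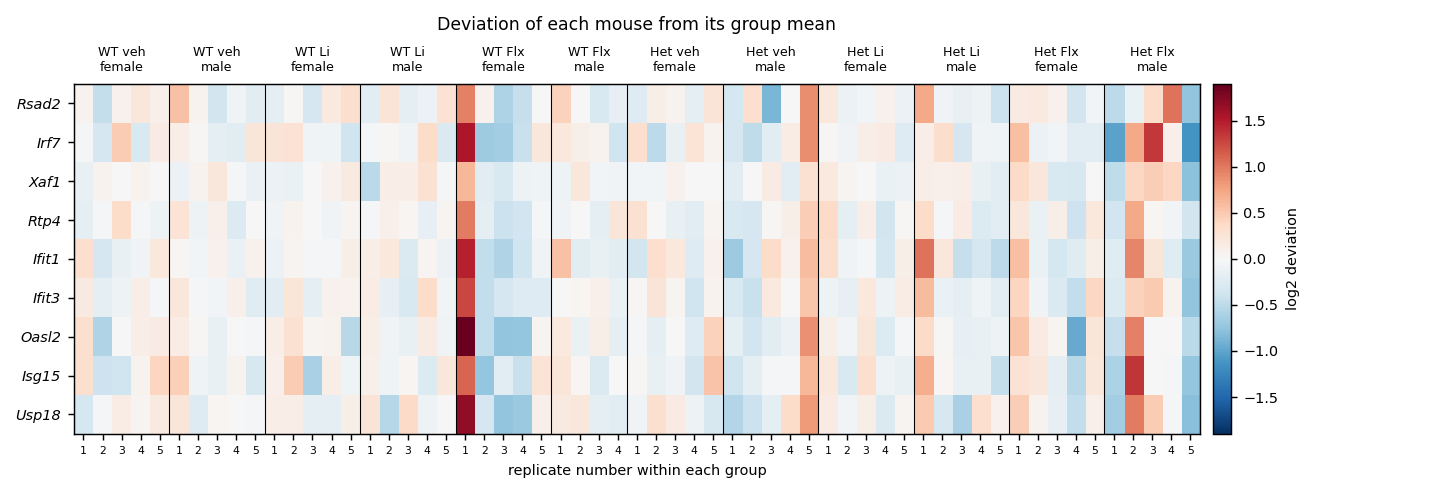
Deviation of each mouse from its group mean on the log2 scale (colour) for the 9 genes (rows) in the 59 libraries (columns, by replicate number within each group). Wild-type fluoxetine female 1 and heterozygous vehicle male 5 are above their group mean in all 9 rows.

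Markers of other cells were compared between fluoxetine and vehicle over both genotypes, where 3.09% of all genes were called in either direction (1.45% higher). For microglia 0 of 20 genes were called, with summed levels of 14335 to 20024 in heterozygous fluoxetine mice and 16656 to 18459 in heterozygous vehicle mice, and of 16706 to 18689 and 16596 to 23428 in wild-type mice. None of these 20 markers was at 0 in a library. For endothelium 2 of 16 fell and 0 rose. In heterozygous mice alone 1 of 20 microglial and 1 of 16 endothelial genes were higher, where 2.21% of all genes were. Olfactory bulb genes differed by a median of 0.63 (0 of 18 called), in opposite directions in the genotypes. In heterozygous mice the median was -0.34, with 0 of 18 above 0. In wild-type mice it was 1.63, with 18 of 18 above 0, their summed levels being 19058 to 39783 with fluoxetine and 8381 to 45126 with vehicle there, and Barhl2 was at 0 in a library. Glucocorticoid-responsive genes moved in the comparison over both genotypes, with 5 of 14 higher and 2 lower (median 0.24, and 0.32 in heterozygous mice). Without the 4 libraries named above 4 were higher and 1 lower, where 285 of all genes were called. The part of this list in the levels of the 9 genes was not tested. When the olfactory bulb list entered as a covariate, 6 of the 9 genes were called with fluoxetine over both genotypes, against 7 without it. Ifit1 was no longer called (0.40 ± 0.14, SE, limma adjusted p = 0.0567). The share of all genes called in that fit is not given here. The part of the dissection in the levels of the 9 genes was not tested beyond that covariate.

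Other genes of the interferon pathway were taken from lists. Among 53 other type I interferon-stimulated genes, 5 rose with fluoxetine over both genotypes and 0 fell by limma, with a median difference of 0.10. Of all genes, 3.09% were called in either direction (1.45% higher). EdgeR called 5 of the 53 higher and 1 lower. The genes called by limma are named next. These were Ifi44 at 0.61 ± 0.15 (SE), Bst2, which tethers virus particles to the cell surface, at 0.49 ± 0.12, Lgals3bp at 0.41 ± 0.10, the antiviral GTPase Mx2 at 0.36 ± 0.10 and Slfn2 at 0.34 ± 0.09. Without the 4 libraries named above 0 rose and 0 fell by limma. In heterozygous mice 4 of the 53 rose (Ifi44, Bst2, Lgals3bp and Slfn2), and in wild-type mice 1 did, Mx2 at 0.65 ± 0.15. Of all genes, 2.21% were called higher in heterozygous mice and 0.184% in wild-type mice.

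Upstream of these genes little moved, beside 3.09% of all genes called in either direction over both genotypes (1.45% higher). Of 13 receptor and JAK-STAT genes 0 rose and 1 fell over both genotypes: Ifnar1, a receptor chain, at -0.08 ± 0.02 (SE, limma adjusted p = 0.0160). Ifnar2 was at -0.04 ± 0.04, Stat2 at 0.08 ± 0.04 and Irf9 at 0.07 ± 0.06, none called. Of 22 sensors of foreign nucleic acid 0 rose and 1 fell (Tmem173, the adaptor STING, at -0.29 ± 0.08), whereas edgeR called 1 higher and 0 lower. In heterozygous mice alone, where 2.21% of all genes were called higher, 2 rose, the RNA sensor Tlr7 at 0.52 ± 0.12 and Ifi204 at 0.77 ± 0.23. Of 11 negative regulators 1 fell, Tnfaip3, an inhibitor of inflammatory signalling, at -0.21 ± 0.06. In the interferon gamma and antigen presentation list 1 of 30 rose (H2-D1, 0.25 ± 0.07). The 11 interferon ligand genes were not analysed here.

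**Figure D5:**
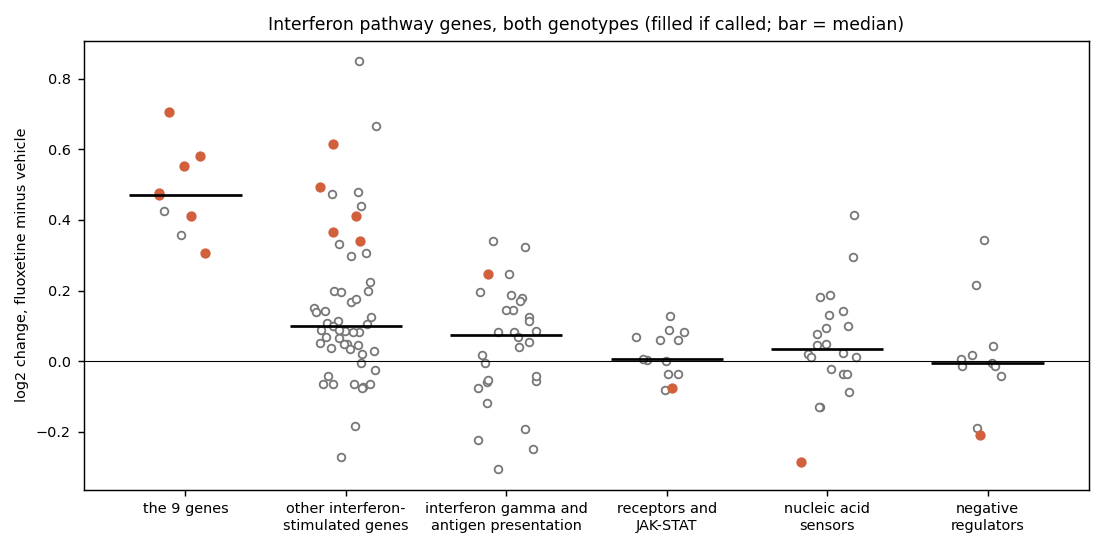
Log2 difference between fluoxetine and vehicle over both genotypes for the 9 genes and for 5 lists of interferon pathway genes, with filled points for called genes and bars for medians. The median is 0.47 for the 9 genes and 0.10 for the other interferon-stimulated genes.

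Genes whose within-group deviations were most like the mean of the 9 (Pearson's r over 59 mice, as a description) included Gbp3 (0.85), the Ifit3 copy Ifit3b (0.85), Lgals3bp (0.83) and Bst2 (0.83). Without the 2 mice farthest from the median these were 0.78, 0.77, 0.81 and 0.73. The 20 nearest genes outside the 9, out of all genes tested, had r from 0.70 to 0.85, and all 20 were in the hand-written interferon lists. Those lists were also written with earlier results of these data known, so this overlap is a description only.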

How the data were processed

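Strand-specific libraries of polyadenylated RNA were sequenced, per the labels' protocols. The submitters' processing notes list DESeq2 1.19.11, Salmon 0.11.2, GRCm38 and R 3.6.0, without their roles. The authors deposited 1 table of signal values, counts divided by a size factor per library. Whole counts were recovered for 100% of values within 0.01 count, although in 3 libraries 1 count was too near a value of 1 to show it. limma 3.58.1 (R 4.3.3) was fitted to log2(value + 1), which understates changes of low genes, for genes at 10 or more in at least 4 libraries, with 12 group means, 47 residual degrees of freedom and a trend; p-values were adjusted by Benjamini-Hochberg in each of 14 comparisons. Alternatives included edgeR 4.0.16 on the recovered counts, other scalings and filters, and left-out libraries. The step was tested on simulated data. Replicates differed by more than counting error (chi-square per gene 3.05 to 82.3 over 116 pairs). Gene positions come from GENCODE vM21. The members and lists were chosen with earlier results of these data known. Named were all 9 genes; of other lists at most 6 called genes of largest change plus Ifnar1, Ifnar2, Stat2 and Irf9; the genes most like the 9; Dyrk1a; near-identical copies; and promoter stretches with a match. Not every gene under this rule is reported here. Genes named to describe single libraries were chosen after their values were seen. 20 symbols had several identifiers and 11 identifiers no symbol.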

Additional observations from a re-analysis of the deposited data

Results flagged for a closer look

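For each of the 9 genes and 12 groups, the highest and lowest mouse were compared with the other mice of the group by the gap to the nearest of them over the whole range of the group. Of 108 such groups 19 had a mouse apart from the rest, 18 at the high end and 1 at the low end. Chance gives about 1 in 20, or 5.4, for separate tests of symmetric values. These were not separate tests, because the 9 genes moved together from mouse to mouse. The normalised counts were compared without logs, where high values stand apart more easily. The 19 and the 5.4 therefore do not show whether chance was exceeded. Wild-type fluoxetine female 1 stood apart in 7 genes, with 244 normalised counts of Irf7, 111 of Xaf1, 173 of Rtp4, 254 of Ifit1, 630 of Ifit3, 562 of Oasl2 and 168 of Usp18. Heterozygous fluoxetine male 2 did in 3, with 165 of Rtp4, 328 of Oasl2 and 157 of Isg15. Heterozygous vehicle male 5 had 188 of Oasl2 and 69.2 of Isg15, and heterozygous lithium male 1 had 61.1 of Rsad2 and 313 of Ifit3. Heterozygous fluoxetine female 1 had 109 of Irf7, wild-type fluoxetine male 1 had 108 of Ifit1 and wild-type fluoxetine male 2 had 87.2 of Xaf1. Wild-type vehicle female 3 had 77.1 of Rtp4, and wild-type vehicle female 2 had the 1 low value, 21.8 of Rsad2.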

How the results depend on the processing

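No fluoxetine difference of the 9 genes within or over the genotypes, and no genotype difference over all drugs, changed sign in an alternative in which it was recomputed. Between limma and edgeR 4 differences that neither called changed sign: Oasl2 for genotype under fluoxetine (0.07 and -0.05), Rtp4 for lithium over both genotypes (0.004 and -0.003), and Rtp4 (0.04 and -0.002) and Usp18 (0.06 and -0.08) for the difference in response to fluoxetine. With a pseudocount of 5, no filter, TMM factors, the replicate number as a block or edgeR, no count of called genes moved by over 1.5 times: over both genotypes with fluoxetine 7 genes were called with the replicate block and 9 by edgeR, and 4 in heterozygous mice with both. Replicate numbers did not pair the mice: same-numbered libraries of different groups had a mean correlation of -0.007, others 0.002, and 16 of 59 libraries correlated best with their own number. Array weights give less weight to libraries far from the fit over all genes. With array weights the counts were 2 over both genotypes, 0 in heterozygous mice, 7 in wild-type mice, and 3 for genotype under vehicle, where 1057, 975, 3110 and 7567 of all 17901 genes were called. With the compared groups alone they were 2 over both genotypes and 0 in heterozygous mice, beside 250 and 2 of all genes. A filter of a mean of 100 kept 2 of the 9 genes and called 2, 0 in heterozygous mice and 0 for genotype over all drugs, which was also 0 with the olfactory bulb covariate, where 119 of all genes were called in place of 3823. Without heterozygous fluoxetine males 3 and 4 the counts were 4 over both genotypes and 0 in heterozygous mice, beside 423 and 76 of all genes. In alternatives chosen after seeing the data, leaving out wild-type fluoxetine female 1 and heterozygous fluoxetine male 2 gave 2 for genotype under fluoxetine and 1 for the difference in response to fluoxetine, beside 259 and 1082 of all genes, and leaving out these and males 3 and 4 gave 0 over both genotypes and 0 in heterozygous mice, beside 285 and 141. The cause was not tested.

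Leaving out each library in turn, the count ran from 4 to 9 over both genotypes, from 1 to 7 in heterozygous mice (1 without heterozygous fluoxetine male 3, 2 without heterozygous fluoxetine female 1, fluoxetine male 4 or vehicle male 4, 7 without fluoxetine male 5), from 0 to 2 for genotype under fluoxetine (2 without heterozygous fluoxetine male 5), and from 1 to 3 for genotype over all drugs (3 without wild-type fluoxetine female 1). It stayed at 0 in the other 10 comparisons, and 34 to 36 pairs of genes passed the correlation test by r and 32 to 36 by rho (32 without wild-type fluoxetine female 1). Single libraries ended the call of Xaf1 in 7 of 39 cases and of Rsad2 in 3 of 39 over both genotypes, and of Xaf1 in 5 of 20 and Irf7 in 1 of 20 in heterozygous mice. For fits with a single library left out, the number of all genes called is not given here.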

Other observations

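Some antigen presentation genes differed by genotype. Averaged over the drugs, 10 of 30 genes of the interferon gamma and antigen presentation list were higher in heterozygous mice and 2 were lower, with a median difference of 0.09. Of all genes, 21.4% were called in either direction (8.97% higher, limma). With vehicle, the list lay 0.08 above the mean of all libraries in heterozygous mice (SD 0.36, n = 10), with 1 library at 1.03. In wild-type vehicle mice it lay at -0.05 (SD 0.18, n = 10), with the highest library at 0.27. The part of single libraries in these calls was not tested. Olfactory bulb markers moved with the same comparison (median 0.65 higher in heterozygous mice, 18 of 18 above 0), and with that list as a covariate 119 of all genes were called in place of 3823. The part of these markers in the antigen presentation genes was not tested. The higher ones included Iigp1, an interferon-inducible GTPase, at 0.41 ± 0.12 (SE), H2-Q4 at 0.38 ± 0.12, the peptide transporter Tap1 at 0.29 ± 0.09 and the immunoproteasome subunit Psmb8 at 0.25 ± 0.07. The lower ones were H2-Aa at -0.31 ± 0.11 and Cd74 at -0.25 ± 0.08, both of the class II pathway.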
